A study of Mus musculus with 35 samples.

Results

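Interscapular brown adipose tissue (iBAT) of 5 mice kept at 6 °C for 3 days was compared with iBAT of 5 mice kept at room temperature, gene by gene. The 10 libraries were picked by their column names from a series of 35, which covers room temperature and 6 durations of cold. All animals were male C57BL/6J mice 9 to 10 weeks old, and the labels name no genetic change and no agent. The cold mice were housed singly in static cages without nesting material in an incubator at 6 °C, whereas the controls stayed in the colony room at 24 °C, so temperature and housing changed together and their effects cannot be told apart. Each library came from polyadenylated RNA of iBAT trimmed of white fat, and QuantSeq 3' sequencing gave 1 tag near the end of each captured transcript. Levels are CPM, counts per 1000000 counts of the library after TMM scaling, errors beside CPM values are SDs over 5 mice, and errors beside log2 differences are SEs. A gene was called when the quasi-likelihood test of edgeR gave it a Benjamini-Hochberg adjusted p below 0.05.

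Brown adipocytes burn fatty acids and glucose and release the energy as heat through UCP1, an uncoupling protein of the inner mitochondrial membrane. Sympathetic nerves release noradrenaline in the cold, which acts through β-adrenergic receptors and cyclic AMP to drive lipolysis and the thermogenic genes. Over days of cold, iBAT is also known to take up monocytes, to hold dividing progenitors and endothelial cells, and to lay down new brown adipocytes.

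The 10 libraries held 3945908 to 5570725 counts, and 1 count was worth 0.18 to 0.253 CPM. Mitochondrial genes took 34.7 to 41.3% of the counts in the cold mice and 38.4 to 41.3% in the controls. The groups did not overlap in the share of Gm42418, a locus that holds ribosomal RNA sequence (12.4 to 16.3% against 8.92 to 11.3%), nor in the number of genes detected (16321 to 17944 against 17953 to 20246). These library measures move with the groups, and their part in the results below was not tested. Markers of other tissues were checked in the same way. The 6 luminal epithelial markers summed to at most 0.622 CPM in any mouse and the 8 neutrophil markers to at most 3.88 CPM, whereas the 15 skeletal muscle markers summed to 110 to 1411 CPM in the controls and to 30.3 to 801 CPM in the cold mice, ranges that overlap. Because whole tissue was sequenced, more cells of a type and more RNA per cell cannot be told apart in any value below. Nothing in the labels says whether the 5 controls shared a cage or whether the 5 mice of a group were processed together, so the p-values measure the spread between these animals.

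After 3 days of cold, 1982 genes rose (18.3% of the 10827 tested) and 1674 fell (15.5%). The levels of all 5 cold mice lay above those of all 5 controls for 1296 genes, called or not (12.0% of those tested), and below them for 1088 (10.0%). By size, 601 genes rose and 469 fell by at least 2-fold, 138 and 48 by at least 4-fold, and 53 and 13 by at least 8-fold. The median log2 difference of all tested genes was -0.0073 and the median SE was 0.182. When libraries were scaled by total counts alone, without TMM, the median of all genes moved to -0.146 and the calls became 1339 higher and 2430 lower, so the share of higher calls fell from 54.2% to 35.5%. Directions of the called genes named below held under that scaling, but the balance of calls in several lists moved, and the splits of those lists under that scaling are given where they are described.

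**Figure D1:**
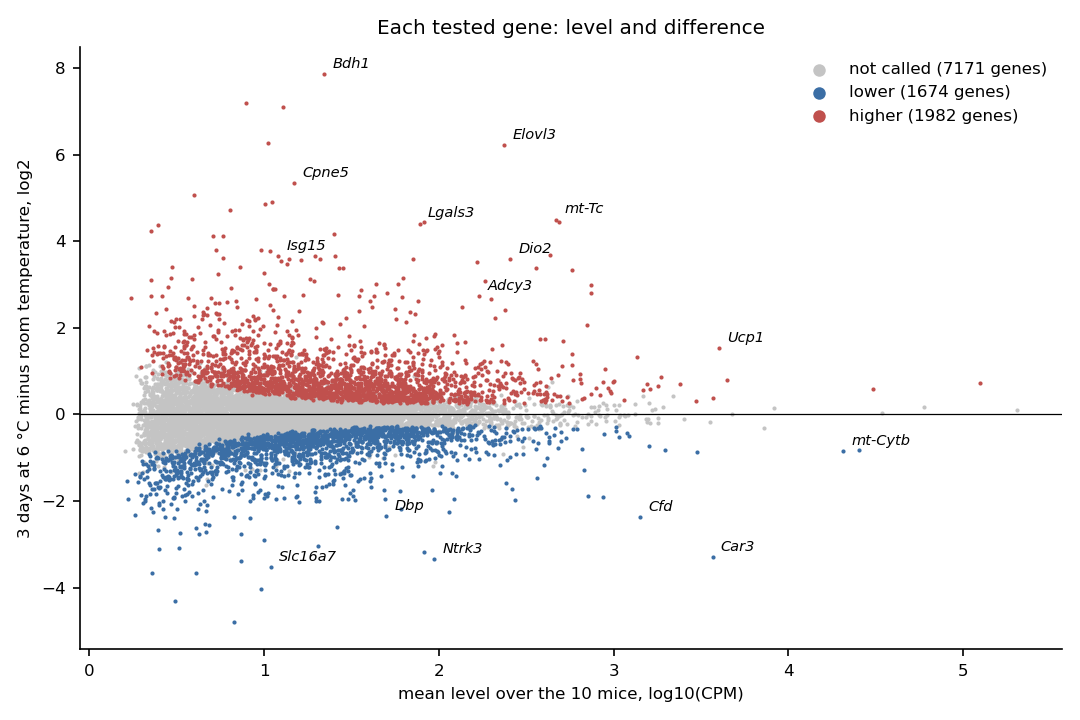
Log2 difference between 3 days at 6 °C and room temperature (vertical axis) against the mean level over the 10 mice in log10 CPM (horizontal axis), with 1 point per tested gene. The 1982 genes called higher are red, the 1674 called lower are blue and the rest are grey; Bdh1, Bmp8b and Gdf15 stand highest and Car3 is the most abundant of the genes that fell by more than 3 log2 units.

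Members of 45 gene lists, holding 981 genes, were counted against these shares. The lists with the highest share of members called higher were the interferon list (12 of 13 tested), the lipid-handling macrophage list (13 of 17) and the monocyte and chemokine list (9 of 12), against 18.3% of all genes. The lists with the highest share of members called lower were the circadian clock list (9 of 17) and the general adipocyte list (7 of 15), against 15.5% of all genes. The lists were chosen with results of these data known, so their counts describe these mice and are no independent evidence. A scarce gene could also pass the count filter through its higher group alone, which favours calls among tested members of lists near the floor. Of 22 genes that the study labels in a heatmap of the course, 19 were tested, 15 rose and 0 fell by edgeR, and having been picked on these samples they are no independent evidence either.

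**Figure D2:**
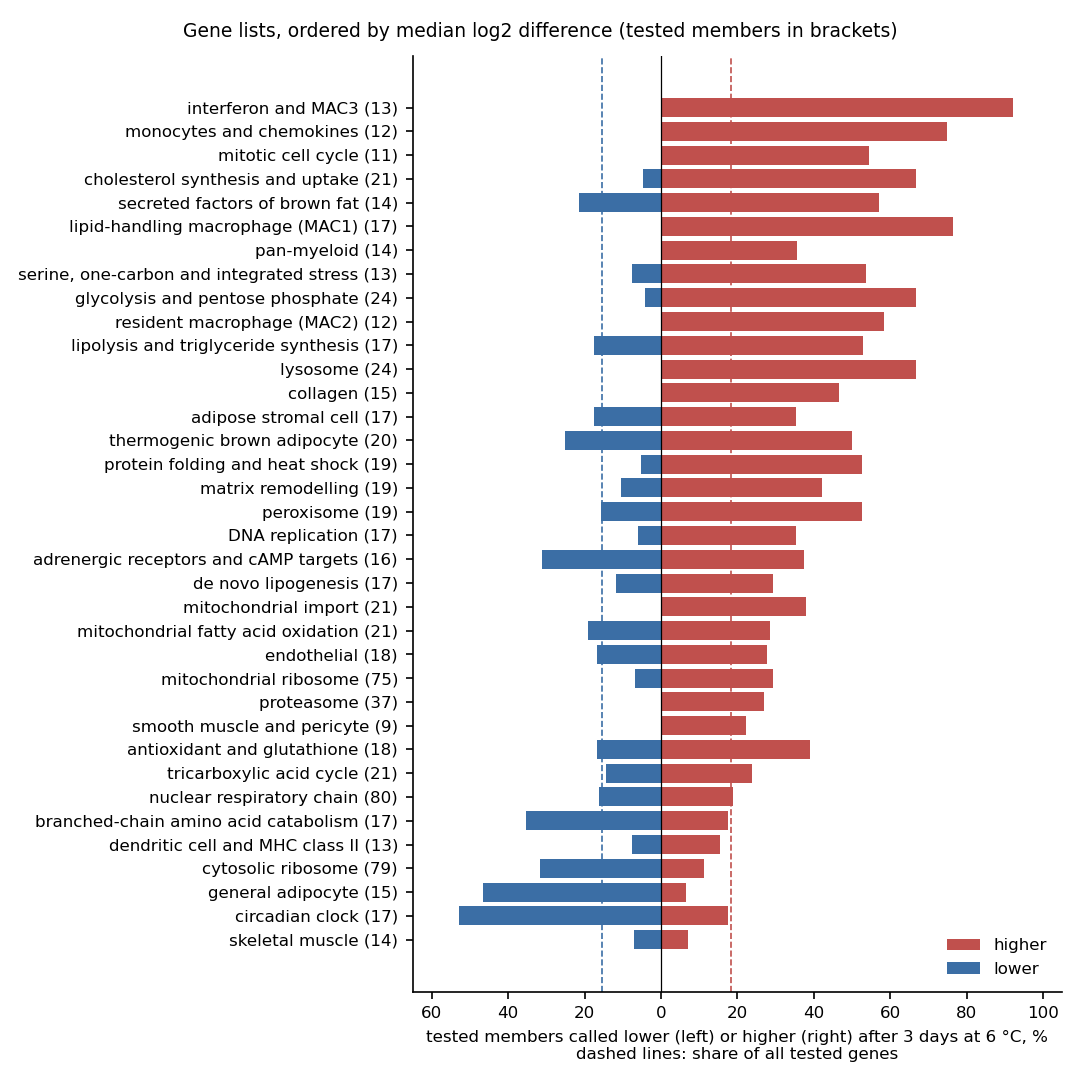
Share of the tested members of each gene list called higher (red, to the right) or lower (blue, to the left) after 3 days at 6 °C, in percent, for the lists with 9 or more tested members. Dashed lines mark the shares among all tested genes, 18.3% higher and 15.5% lower; the interferon list reaches furthest to the right and the circadian clock list furthest to the left.

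The largest rise belonged to Bdh1, which encodes the mitochondrial enzyme that interconverts the ketone bodies acetoacetate and β-hydroxybutyrate (GRCm38 chromosome 16, 31422280 to 31458901, plus strand). Its level was 0.207, 0, 0.467, 0 and 0.196 CPM in control mice 1 to 5 and 37.8, 29.7, 43.2, 70.5 and 37.5 CPM in cold mice 1 to 5. With at most 3 counts in any control library, the rise is a lower bound of at least 71.4-fold (3 counts in each control library). The secreted factors Gdf15, a stress-induced cytokine that acts on the hindbrain, and Bmp8b, a brown-fat ligand of the BMP family, were likewise close to the counting floor in the controls and rose by at least 41.6-fold and at least 25.5-fold. For Gdf15 that bound rests largely on 1 animal, cold mouse 3 at 83.5 CPM, while the other 4 cold mice had 3.75 to 22.3 CPM. Without cold mouse 3 the fitted log2 difference moved from 7.11 to 5.87 and stayed called.

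Elovl3, an elongase of very long chain fatty acids that marks active brown fat (chromosome 19, 46131897 to 46135694, plus strand), stood at 14.3, 5.61, 6.08, 4.6 and 0.785 CPM in the controls and at 390.2, 515, 389, 388 and 641 CPM in the cold mice. The groups lay far apart, and the log2 difference was 6.22 ± 0.37 (adjusted p = 7.9e-09). Cpne5, a calcium-dependent phospholipid-binding protein, rose from 0.682 ± 0.367 to 28.9 ± 7.28 CPM (log2 5.34 ± 0.29, adjusted p = 2.8e-09). Gm15241, a noncoding gene that lies on the strand opposite to Adgrg2, rose from 2.85 ± 1.28 to 36.2 ± 6.91 CPM. The strand setting of the counting is not given in the sources used here, so reads of Gm15241 and Adgrg2 may not have been separated.

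Among the falls, Slc16a7, a transporter of lactate, pyruvate and ketone bodies, had 17.3 to 23 CPM in the controls and 0.624 to 2.71 CPM in the cold mice, a log2 difference of -3.52 ± 0.26 (adjusted p = 6.5e-08). Ntrk3, the receptor for neurotrophin-3 (chromosome 7, 78175959 to 78738012, minus strand), stood at 164, 116, 210, 195 and 169 CPM in the controls and at 9.63, 29.5, 14, 6.66 and 25 CPM in the cold mice. Car3, a carbonic anhydrase abundant in adipocytes (chromosome 3, 14863512 to 14872523, plus strand), stood at 6221, 6879, 6710, 6918 and 6654 CPM in the controls and at 518, 685, 489, 750.2 and 950.2 CPM in the cold mice. For both genes every cold mouse lay below every control by a wide margin, and the log2 differences were -3.34 ± 0.29 and -3.30 ± 0.17 (adjusted p = 4.4e-07 and 2.6e-09). Impdh1, which catalyses the committed step of guanine nucleotide synthesis, fell from 149 ± 58.5 to 16.4 ± 1.57 CPM. Hcar1, the lactate receptor of adipocytes, fell from 36 ± 7.45 to 4.47 ± 2.21 CPM (log2 -3.04 ± 0.24), and Adora1, the inhibitory adenosine receptor, fell from 100.2 ± 15.8 to 22 ± 1.97 CPM (log2 -2.19 ± 0.13). Svep1, a large extracellular matrix protein, and Ivns1abp, a kelch-domain protein, fell by 2.59 and 2.26 on the log2 scale.

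Thermogenic genes separated the groups but did not all go one way. Of 20 tested members, 10 rose and 5 fell, with a median log2 difference of 0.42. Ucp1 (chromosome 8, 83290352 to 83298452, plus strand) stood at 3015, 2116, 2264, 1504 and 1391 CPM in the controls and at 5629, 6290, 4670, 7295 and 6034 CPM in the cold mice. All cold mice exceeded all controls, by 1.54 ± 0.19 on the log2 scale (adjusted p = 1.1e-05). Dio2, which activates thyroid hormone inside the cell, had 86.9, 61.7, 22.9, 14.5 and 11.2 CPM in the controls and 364, 629.5, 453, 409 and 502 CPM in the cold mice. The controls spread widely, yet the groups did not overlap and the difference was 3.58 ± 0.43 (adjusted p = 9.8e-06). Gk, glycerol kinase, rose by 1.75 ± 0.25, Ppargc1a, a coactivator of mitochondrial biogenesis, by 1.13 ± 0.23, and Kcnk3, a potassium leak channel, by 0.83 ± 0.10. The 5 members that fell were Ppara, Prdm16, Ebf2, Ppargc1b and Cox8b, named here after their values were seen. The first 3 encode transcription factors known for brown adipocyte identity or fatty acid oxidation, and they fell by 0.98, 0.65 and 0.64 on the log2 scale.

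Of 15 tested general adipocyte genes, 7 fell, 1 rose and 7 were not called, and the median was -0.31. Adipoq, which encodes the hormone adiponectin, stood at 874, 932, 1121, 994 and 909.6 CPM in the controls and at 389, 462, 257, 367 and 497 CPM in the cold mice. The groups did not overlap, and the difference was -1.29 ± 0.15 (adjusted p = 6.2e-06). Cfd, the adipokine adipsin, fell from 2362 ± 377 to 456 ± 121 CPM (log2 -2.37 ± 0.17, adjusted p = 6.3e-08). Lep, the hormone leptin, was low already in the controls at 3.53 to 22.4 CPM and fell to 0.832 to 3.06 CPM. Cebpa, a transcription factor of adipocyte differentiation, fell by 0.92 ± 0.10. The member that rose was Lpl, lipoprotein lipase, named after its value was seen, at 0.80 on the log2 scale.

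In the adrenergic list, receptors and downstream genes did not go one way, with 6 of 16 members higher and 5 lower. Adcy3, an adenylyl cyclase that makes cyclic AMP, stood at 55.4, 50.7, 47.9, 38.2 and 30 CPM in the controls and at 302, 337, 231, 335 and 281 CPM in the cold mice, with no overlap (log2 2.74 ± 0.16, adjusted p = 5.4e-09). Ffar4, a fatty acid receptor, and Sgk1, a kinase induced by hormones and stress, rose by 1.14 ± 0.17 and 1.01 ± 0.25. Adrb3, the β3-adrenergic receptor, was at 102 ± 31.5 CPM in the controls and 114 ± 19.5 CPM in the cold mice and did not pass the test (adjusted p = 0.53). Rgs2, a brake on G-protein signalling, fell by 1.59 ± 0.39, although cold mice 1 and 2 lay within the range of the controls. The count of 5 lower members dropped to 3 without control mouse 1 or 2 or cold mouse 1 or 4.

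**Figure D3:**
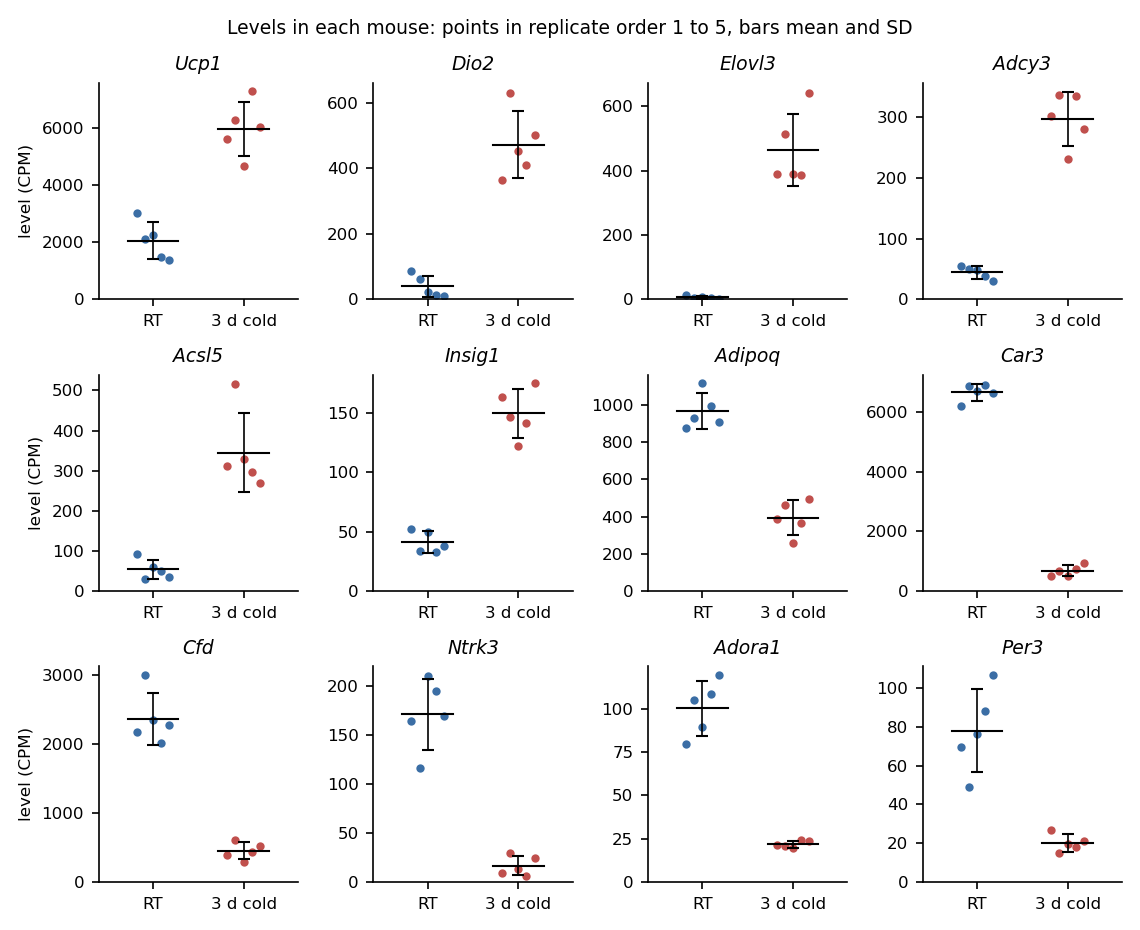
Levels in CPM (vertical axes, linear, from 0) of 12 genes in each of the 5 room temperature mice (blue) and the 5 mice after 3 days of cold (red), with points in replicate order, black lines at the mean and bars of 1 SD. Ucp1, Dio2, Elovl3, Adcy3, Acsl5 and Insig1 lie higher in all cold mice, and Adipoq, Car3, Cfd, Ntrk3, Adora1 and Per3 lie lower.

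Sterol synthesis and uptake was the lipid pathway with the largest share of rises. Of 21 tested members, 14 rose and 1 fell, and the median was 0.95. Insig1, a sterol sensor of the endoplasmic reticulum, stood at 51.9, 33.7, 49.5, 32.9 and 37.5 CPM in the controls and at 163, 147, 122, 141 and 175 CPM in the cold mice, with no overlap (log2 1.87 ± 0.14, adjusted p = 1.1e-07). The enzyme Mvd, which acts near the start of the pathway, rose by 2.16 ± 0.31 on the log2 scale from a level of 2.99 CPM. Hmgcs1, which makes HMG-CoA, rose by 0.63 ± 0.13. The member that fell was Fdft1, squalene synthase, from 25.2 ± 3.56 to 6.26 ± 1.56 CPM (log2 -2.02 ± 0.18), a gene that overlaps Ctsb on the opposite strand.

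Fatty acid synthesis split by enzyme. Of 17 tested members of the de novo lipogenesis list, 5 rose (29.4%, against 18.3% of all genes) and 2 fell (11.8%, against 15.5%). Fasn, fatty acid synthase, ranged from 459 to 3596 CPM in the controls and from 1241 to 3899 CPM in the cold mice. That spread covers both groups, and neither Fasn nor Acly, which supplies its acetyl-CoA, passed the test (adjusted p = 0.42 and 0.12). The elongases and a desaturase rose instead: Elovl6 from 187 ± 61.6 to 625 ± 136 CPM (log2 1.74 ± 0.20), Elovl5 by 0.89 ± 0.16, and Scd2 from 17.3 ± 6.08 to 94.2 ± 13.4 CPM (log2 2.44 ± 0.20). Its paralog Scd1 fell, from 3894 ± 745 to 2133 ± 530 CPM (log2 -0.87 ± 0.18, adjusted p = 0.0012). Pnpla3, a lipase of lipid droplets, fell by 1.52 ± 0.31 from a mean of 9.89 CPM.

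Genes of triglyceride turnover rose more often than they fell, 9 against 3 of 17, with a median of 0.54, and 8 against 5 with scaling by total counts. Acsl5, which activates long-chain fatty acids, stood at 91.7, 31, 60.8, 49.9 and 35.9 CPM in the controls and at 313, 515, 328, 298 and 269 CPM in the cold mice (log2 2.68 ± 0.25, adjusted p = 8.6e-07). Agpat2 and Gpam, acyltransferases of glycerolipid synthesis, rose by 1.32 ± 0.19 and 0.76 ± 0.12, and Mgll, monoglyceride lipase, by 0.78 ± 0.16. Dgat2, which completes the triglyceride, fell from 831 ± 74.9 to 481 ± 141 CPM (log2 -0.79 ± 0.16). The lipases that start lipolysis, Pnpla2 and Lipe, had log2 differences of -0.20 ± 0.15 and -0.15 ± 0.12 and did not pass the test (adjusted p = 0.32 and 0.33).

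In the peroxisome list 10 of 19 members rose and 3 fell, with a median of 0.35. Slc25a17, the peroxisomal carrier of the SLC25 family, rose from 61.8 ± 17.2 to 194 ± 27.8 CPM. Slc25a34, which the list also counts although it is placed with the mitochondrial carriers of that family, rose from 9.17 ± 5.37 to 61.1 ± 15.9 CPM. Ehhadh, the bifunctional enzyme of peroxisomal β-oxidation, rose by 1.39 ± 0.28 and Acot8, an acyl-CoA thioesterase, by 1.27 ± 0.22. Abcd2, which imports very long chain acyl-CoA, fell from 62.5 ± 14 to 19.3 ± 6.73 CPM (log2 -1.69 ± 0.21, adjusted p = 1.3e-05). In mitochondrial β-oxidation the split was 6 higher (28.6%, against 18.3% of all genes) and 4 lower (19.0%, against 15.5%) of 21. The median was 0.16. Cpt2, which releases acyl-CoA inside the mitochondrion, rose by 0.83 ± 0.12 and Acot2, a thioesterase, by 1.24 ± 0.30, whereas Acaa2 and Eci1, a thiolase and an isomerase, fell by 0.73 and 0.62 on the log2 scale. The 6 higher calls of that list became 3 without control mouse 4 or 5 and the 4 lower calls became 2 without control mouse 2 or 4 or cold mouse 1 or 3, and with scaling by total counts the list had 3 higher and 7 lower.

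Of 24 tested members of glycolysis and the pentose phosphate pathway, 16 rose and 1 fell, and the median was 0.64. Pfkp, a phosphofructokinase, stood at 45.2, 34.1, 46, 32.6 and 30.6 CPM in the controls and at 105, 109, 109, 111 and 145 CPM in the cold mice, with no overlap (log2 1.62 ± 0.14, adjusted p = 2.9e-07). Pgam1, Pgk1 and Hk1, further glycolytic enzymes, rose by 1.37 ± 0.16, 1.20 ± 0.22 and 1.05 ± 0.18, and Pgd, of the pentose phosphate pathway, by 1.24 ± 0.19. Near-identical processed copies of Pgam1 and Pgk1 exist in the genome, so their values are uncertain where reads map to several places. Pdk4, a kinase that inhibits pyruvate dehydrogenase, rose by 0.99 ± 0.22. The member that fell was Pfkm, the muscle phosphofructokinase, by 0.84 on the log2 scale, named after its value was seen. The glucose transporters Slc2a1 and Slc2a4 had log2 differences of 0.53 ± 0.33 and 0.35 ± 0.17 and did not pass the test.

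Around the ketone enzyme Bdh1, Slc16a1, the monocarboxylate transporter MCT1, rose from 241 ± 53.7 to 495 ± 101 CPM (log2 1.04 ± 0.16), and its chaperone Bsg rose from 119 ± 8.62 to 274 ± 38 CPM (log2 1.20 ± 0.11). Oxct1, the rate-limiting enzyme of ketone body use, was at 357 ± 54.4 and 417 ± 67.5 CPM and did not pass the test (adjusted p = 0.19). In the tricarboxylic acid cycle 5 of 21 members rose and 3 fell, close to the shares of all genes, and the 5 became 3 without control mouse 4. With scaling by total counts the split turned to 3 higher and 8 lower. Idh3a rose from 1335 ± 174 to 2418 ± 99 CPM (log2 0.86 ± 0.10), and Mdh2 and Dld by 0.50 ± 0.12 and 0.48 ± 0.10. Idh2, the NADP-linked isocitrate dehydrogenase, fell by 1.04 on the log2 scale. Cs, citrate synthase, was at 582 ± 16.9 and 498 ± 71.7 CPM and was not called (adjusted p = 0.11). Catabolism of branched-chain amino acids had 3 members higher of 17, near the share of all genes (17.6% against 18.3%), and 6 lower (35.3% against 15.5%). Mcee, methylmalonyl-CoA epimerase, rose from 114 ± 13.3 to 347 ± 84.8 CPM (log2 1.60 ± 0.15), and Dbt, a subunit of the branched-chain dehydrogenase, by 0.76 ± 0.12. Aldh6a1, Pccb and Acadsb, enzymes of the valine, propionyl-CoA and isoleucine steps, fell by 1.04, 0.71 and 0.66 on the log2 scale. The 3 higher calls of this list became 5 without cold mouse 3.

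Transcripts of the mitochondrial genome differed by kind, a grouping made after the values were seen. Of its 22 tRNA genes, 59 to 75 bases long, 13 had enough counts to be tested, and the 13 rose by 2.80 to 4.50 on the log2 scale (median 3.69) without overlap between groups. Summed over the 22 genes, tRNA loci gave 745, 564.3, 845, 460.4 and 271 CPM in the controls and 5968, 4367, 10186, 5089 and 4839 CPM in the cold mice, or 577 ± 228 against 6090 ± 2363 CPM. The tRNA for cysteine, mt-Tc, had 12.2 to 71.7 CPM in the controls and 651 to 1004 CPM in the cold mice (log2 4.50 ± 0.34, adjusted p = 9.8e-08). Tags assigned to mt-Tl1 and mt-Tp rose by 4.45 ± 0.30 and 4.44 ± 0.31. These counts are tags captured by oligo(dT) priming inside short genes, so they need not reflect mature tRNA.

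The other mitochondrial transcripts moved far less. Both ribosomal RNA genes had log2 differences of 0.10 to 0.18 and were not called. Of 8 tested protein genes, 3 rose and 2 fell. All 3 that rose encode subunits of complex I, but so do mt-Nd4, which fell, and mt-Nd2 and mt-Nd5, which were not called (log2 0.02 and 0.01). The abundant mt-Nd1 rose from 24253 ± 2382 to 36395 ± 5417 CPM without overlap (log2 0.59 ± 0.13, adjusted p = 0.0023), and the scarce mt-Nd6 and mt-Nd3 rose from 56.8 ± 1.43 to 144 ± 53.5 CPM and from 30.5 ± 9.69 to 72.8 ± 19.3 CPM. The mt-Nd6 gene overlaps mt-Nd5, which lies on the opposite strand at 4727 ± 573 and 4769 ± 887.5 CPM, so without a known strand setting its reads may not have been separated. The abundant mt-Nd4 and mt-Cytb fell, from 32145 ± 2873 to 18274 ± 4436 CPM and from 26350 ± 1334 to 14579 ± 3899 CPM (log2 -0.81 ± 0.16 and -0.85 ± 0.16). The remaining 5 of the 13 protein genes were near 0 in both groups and were not tested; how reads mapping to several places were counted is not given in the sources used here.

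**Figure D4:**
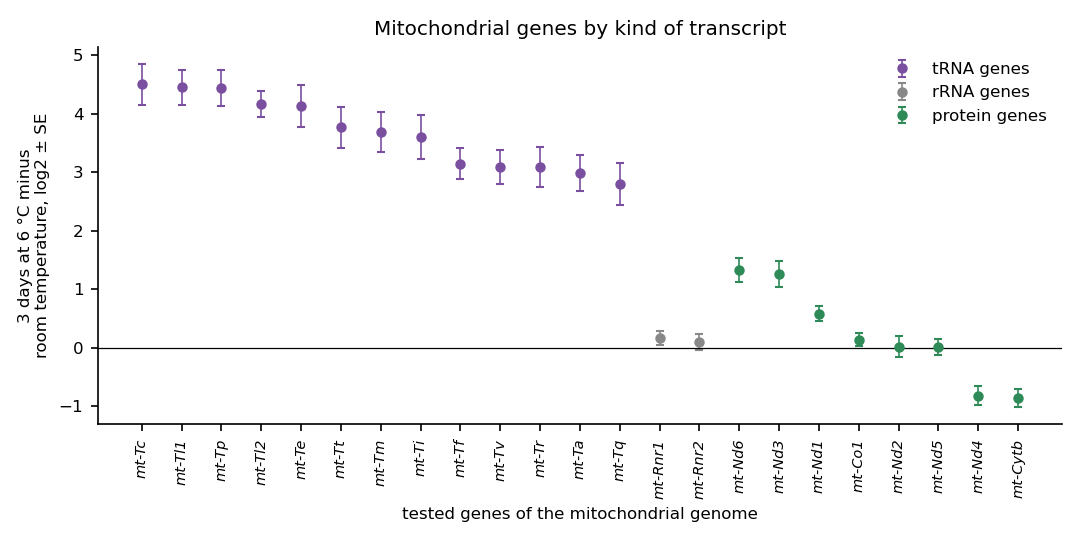
Log2 difference between 3 days at 6 °C and room temperature (vertical axis) with its SE for each tested gene of the mitochondrial genome (horizontal axis), coloured by kind of transcript. The 13 tRNA genes lie between 2.80 and 4.50, both ribosomal RNA genes lie near 0, and the protein genes lie between -0.85 and 1.34.

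Nuclear genes of the respiratory chain had no common direction. Of 80 tested subunits, 15 rose and 13 fell, close to the shares of all genes, and the median was -0.03. Ndufs5 rose by 0.82 ± 0.13, while Ndufb3, Ndufa4 and Cox8a fell by 0.80, 0.66 and 0.61 on the log2 scale. With scaling by total counts the split became 8 higher and 28 lower. Mitochondrial ribosomal proteins had 22 higher and 5 lower of 75 (median 0.14), led by Mrps11 at 0.97 ± 0.18 and Mrps2 at 0.94 ± 0.11, and the split became 12 and 11 with scaling by total counts. The 5 lower calls ranged from 2 without control mouse 5 or cold mouse 1 or 3 to 8 without cold mouse 2, and were 3 without control mouse 1, 2 or 4 or cold mouse 5. Of 21 proteins of the mitochondrial import machinery, 8 rose and 0 fell by edgeR, with 1 lower under scaling by total counts. Tomm20, the receptor of the outer membrane, rose by 0.81 ± 0.23 and Timm22, a channel of the inner membrane, by 0.77 ± 0.15.

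Cytosolic ribosomal proteins leaned the other way, with 9 higher and 25 lower of 79 and a median of -0.18. Under scaling by total counts the split was 5 and 39, and the 9 higher calls became 5 without control mouse 4. Rps19 fell from 162 ± 21.7 to 107 ± 10.1 CPM (log2 -0.60 ± 0.11) and Rpl23 from 118 ± 41 to 75.4 ± 8.72 CPM, while Rpl13a rose from 7.12 ± 1.34 to 22.3 ± 4.55 CPM. These families have many processed copies in the genome, so single members are uncertain. The proteasome had 10 of 37 members higher and 0 lower by edgeR, led by Psmc4 at 0.75 ± 0.12, and scaling by total counts gave 5 higher and 4 lower.

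Protein folding and stress genes rose in part. Of 19 tested members of the protein folding and heat shock list, 10 rose and 1 fell (median 0.39). Hsph1, a cytosolic heat shock protein, stood at 8.3, 15.4, 10.8, 8.49 and 9.22 CPM in the controls and at 34, 60.6, 48.3, 36.6 and 40.9 CPM in the cold mice (log2 2.08 ± 0.19, adjusted p = 6.9e-07). Hsp90aa1 rose by 1.68 ± 0.18, and Calr, calreticulin of the endoplasmic reticulum, by 0.98 ± 0.11. The member that fell was Cirbp, the cold-inducible RNA-binding protein, from 16.5 ± 2.63 to 6.9 ± 3.63 CPM (log2 -1.29 ± 0.26, adjusted p = 0.001). In the serine, one-carbon and integrated stress list 7 of 13 rose and 1 fell, and the 7 became 4 with scaling by total counts. Mthfd2, a mitochondrial folate enzyme, had 2.35 to 4.44 CPM in the controls and 17.7, 12.1, 43.4, 29.1 and 10.3 CPM in the cold mice (log2 2.74 ± 0.36). Cold mouse 3, the highest for Mthfd2, was also the highest for Gdf15 above. Atf5, a stress transcription factor, rose by 1.43 ± 0.19, and Shmt1, the cytosolic serine hydroxymethyltransferase, fell by 0.90 on the log2 scale.

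Lysosomal genes rose in 16 of 24 cases with a median of 0.54, and 0 were called lower by edgeR with TMM, while DESeq2 and scaling by total counts called 1 lower and 2 were lower without control mouse 3. Lamp1, a lysosomal membrane protein, rose from 442 ± 26.1 to 846 ± 37.8 CPM (log2 0.94 ± 0.09, adjusted p = 9.5e-07), Lamp2 by 0.53 ± 0.10, and Atp6v0d1, a subunit of the proton pump, by 0.91 ± 0.12. Antioxidant genes had 7 higher and 3 lower of 18, which turned to 5 and 6 with scaling by total counts. Srxn1, Txnrd1, Prdx1 and Gclm, of the thioredoxin and glutathione systems, rose by 0.99 ± 0.17, 0.79 ± 0.09, 0.74 ± 0.11 and 0.72 ± 0.14. Gpx3, the secreted glutathione peroxidase, fell from 1371 ± 209.8 to 368 ± 69.1 CPM (log2 -1.90 ± 0.14, adjusted p = 7.9e-08).

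The interferon list joined genes that cells switch on through STAT and IRF factors with markers of the macrophage cluster that the study calls MAC3, among them 3 C-type lectins that had too few counts to be tested. Of its 18 genes 13 were tested, 12 rose and the median was 2.90. Isg15, a ubiquitin-like protein (chromosome 4, 156199424 to 156200818, minus strand), stood at 1.04, 1.66, 1.4, 2.3 and 2.35 CPM in the controls and at 25.6, 9.03, 32.6, 39.5 and 5 CPM in the cold mice (log2 3.65 ± 0.49, adjusted p = 3.3e-05). Rsad2, which encodes viperin (chromosome 12, 26442746 to 26456452, minus strand), stood at 19.5, 23.1, 25.7, 30.1 and 34.3 CPM in the controls and at 450.3, 99.6, 424, 489.7 and 63.1 CPM in the cold mice. Cold mice 1, 3 and 4 were high for both genes and cold mice 2 and 5 were closer to the controls, without overlap. The same order held for Irf7, a transcription factor of the response, with 31.7, 25 and 47 CPM in cold mice 1, 3 and 4 and 7.71 and 3.89 CPM in cold mice 2 and 5, against 1.24 to 3.27 CPM in the controls. Ifit1 and Ifit3, which bind viral RNA, rose by 3.57 ± 0.52 and 3.38 ± 0.53, and cold mouse 5 overlapped the controls for Ifit3. The list summed to 462, 402, 696, 460 and 429 CPM in the controls and to 1260, 630, 991, 1437 and 431 CPM in the cold mice. By this sum, in which abundant members weigh most, 2 of the cold mice lay within the range of the controls. The mean over members of log2(CPM + 1) did not overlap. It was 2.16 to 2.42 in the controls and 4.86, 3.25, 4.51, 4.70 and 2.90 in cold mice 1 to 5.

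The promoters of 3 of these genes are shown because they hold the sequence that interferon-activated factors bind, the interferon-stimulated response element, searched as GAAA followed by any 2 bases and a further GAAA, on either strand. The windows run from 250 bases before to 50 bases after the transcription start of RefSeq on GRCm38.p6, 300 bases in all, and capitals mark the matches. They lie at chr4:156200769-156201068 (minus strand) for Isg15, with 3 matches that overlap, at chr19:34640639-34640938 (plus strand) for Ifit1, with 2 matches, and at chr12:26456403-26456702 (minus strand) for Rsad2, with 1 match.
Isg15: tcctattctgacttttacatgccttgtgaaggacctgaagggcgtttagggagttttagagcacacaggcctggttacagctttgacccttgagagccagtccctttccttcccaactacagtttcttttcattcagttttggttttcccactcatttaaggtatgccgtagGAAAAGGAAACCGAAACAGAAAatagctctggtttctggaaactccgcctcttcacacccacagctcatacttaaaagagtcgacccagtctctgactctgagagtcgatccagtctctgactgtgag
Ifit1: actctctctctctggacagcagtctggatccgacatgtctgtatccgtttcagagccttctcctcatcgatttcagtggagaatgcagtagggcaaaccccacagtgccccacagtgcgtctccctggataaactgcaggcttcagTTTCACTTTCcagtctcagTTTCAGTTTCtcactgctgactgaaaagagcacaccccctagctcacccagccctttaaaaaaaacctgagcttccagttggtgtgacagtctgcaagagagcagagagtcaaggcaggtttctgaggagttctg
Rsad2: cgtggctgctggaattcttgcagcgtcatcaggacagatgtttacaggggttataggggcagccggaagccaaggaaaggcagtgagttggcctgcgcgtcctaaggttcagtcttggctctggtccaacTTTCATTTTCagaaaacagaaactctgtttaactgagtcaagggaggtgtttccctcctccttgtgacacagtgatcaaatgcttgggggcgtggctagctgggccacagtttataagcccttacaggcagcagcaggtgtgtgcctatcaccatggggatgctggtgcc
Of the 12 genes of the interferon list that rose, 10 had a promoter in the RefSeq table and 6 of them held the motif (60.0%). The share was 3.99% of the 27025 genes with a promoter, 3.44% of all 32851 promoters and 3.59% of the tested genes with a promoter. The list was chosen for interferon genes, a class known for this motif, so its share is no independent evidence. A match describes the sequence and is not evidence of binding.

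The lipid-handling macrophage list, called MAC1 here after the macrophage cluster of the study that gave its markers, had 13 of 17 tested members higher by edgeR, 0 lower and a median of 0.80. Its summed level was 4876 to 5923 CPM in the controls and 9108 to 10774 CPM in the cold mice, with no overlap. That sum includes Lpl and cathepsins that adipocytes also express. Lgals3, galectin-3 (chromosome 14, 47367751 to 47386160, plus strand), stood at 6.43, 4.57, 8.41, 4.25 and 11.4 CPM in the controls and at 247, 21.8, 249, 149 and 74.8 CPM in the cold mice (log2 4.41 ± 0.52, adjusted p = 9.5e-06). Gpnmb, a glycoprotein of lipid-laden macrophages, had 2.3 to 6.08 CPM in the controls and 89.4, 5.73, 89.4, 38.1 and 13.1 CPM in the cold mice, with cold mouse 2 inside the control range. Ctss and Capg, a cathepsin and an actin-capping protein of myeloid cells, rose by 2.72 ± 0.45 and 2.67 ± 0.49, and Lipa and Ctsd, lysosomal lipase and cathepsin D, by 0.83 ± 0.15 and 0.80 ± 0.10.

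Resident macrophage (MAC2) genes rose in 7 of 12 cases (3 of 12 with scaling by total counts), with a median of 0.55. Lyve1, a hyaluronan receptor, rose from 2.94 ± 0.997 to 11.5 ± 4.15 CPM (log2 1.96 ± 0.30), and Cbr2 and Pf4 rose by 1.29 ± 0.19 and 1.15 ± 0.20. Markers common to all myeloid cells gave a weaker picture, with 5 of 14 higher. Cd68, a lysosomal marker of macrophages, rose from 2.65 ± 1.34 to 19.9 ± 12.2 CPM (log2 2.91 ± 0.45), and Lyz2, lysozyme, by 1.38 ± 0.31. Csf1r, the receptor on which macrophages depend, was at 13.4 ± 3.15 and 15.5 ± 4.54 CPM and was not called (adjusted p = 0.51). The 5 calls became 3 with scaling by total counts, 10 with no count filter and 11 without control mouse 5, whose summed level of 312 CPM stood above the 97 to 137 CPM of the other controls, and 3 without cold mouse 1.

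Monocyte and chemokine genes had 9 of 12 tested members higher and a median of 1.31, and the 9 became 15 with DESeq2, 16 with no count filter and 14 with the 7 groups in one fit. Ccl2, the chemokine that draws monocytes, had 0 to 0.981 CPM in the controls and 23.1, 2.64, 22.7, 9.36 and 3.89 CPM in the cold mice. Its receptor Ccr2, on incoming monocytes, rose by 1.31 ± 0.36 with overlap, at 28.4, 7.05, 23.8, 22.3 and 6.12 CPM in the cold mice against 4.78 to 9.33 CPM in the controls. Plac8, Ccl6, Ccl9 and Ccl8 rose by 2.92 ± 0.48, 2.87 ± 0.29, 2.52 ± 0.40 and 2.48 ± 0.35. Cold mice 2 and 5 were again the lowest for the list, at 188 and 229 CPM, against 352 to 386 CPM in cold mice 1, 3 and 4 and 106 to 135 CPM in the controls. Dendritic cell and MHC class II genes stayed near the background, with 2 of 13 higher and 1 lower. Irf8, a transcription factor of these cells, rose by 1.39 ± 0.30, and the 2 higher calls became 1 without control mouse 1, 2 or 4 or cold mouse 1 or 4. Neutrophil and T or NK cell markers were too low for any to be tested, and 1 of 9 B cell markers was tested and not called.

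**Figure D5:**
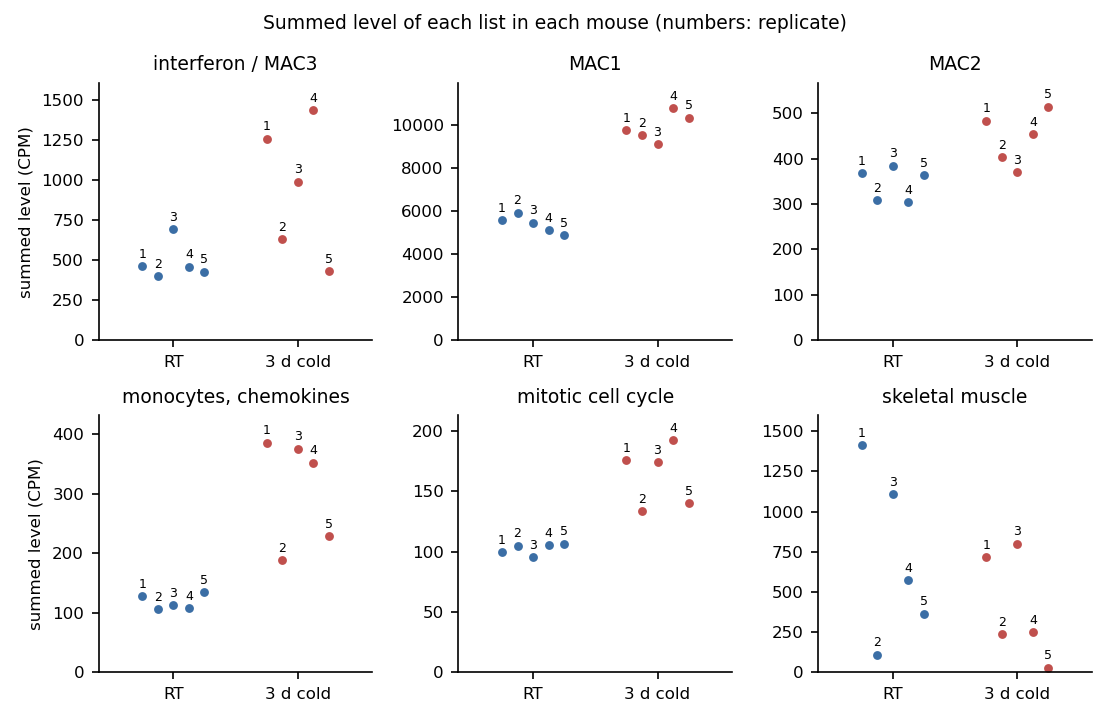
Summed level in CPM (vertical axes, linear, from 0) of 6 gene lists in each room temperature mouse (blue) and each mouse after 3 days of cold (red), numbered by replicate. For the interferon and the monocyte lists, cold mice 1, 3 and 4 lie above cold mice 2 and 5. The MAC1 and mitotic lists separate all cold mice from all controls, and for the skeletal muscle list the groups overlap.

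Some genes of cell division rose from low levels. Of 34 mitotic genes, 11 had enough counts to be tested and 6 rose, with a median of 1.25. A gene low in the controls, such as Mki67 at 0.701 to 1.25 CPM, could pass the count filter through the cold mice alone. The 6 of 11 and the median are therefore partly set by that selection. Top2a, the topoisomerase that untangles replicated DNA, stood at 3.32, 2.08, 3.5, 3.01 and 5.69 CPM in the controls and at 20.8, 13, 18.8, 27 and 15 CPM in the cold mice (log2 2.42 ± 0.26, adjusted p = 3e-06). Mki67, the proliferation antigen, stood at 1.04, 1.25, 0.701, 1.24 and 0.785 CPM in the controls and at 11.2, 4.63, 9.89, 13.1 and 10.6 CPM in the cold mice (log2 3.25 ± 0.32, adjusted p = 1.6e-06). For both genes all cold mice lay above all controls. The list summed to 95.6 to 107 CPM in the controls and to 134 to 192 CPM in the cold mice, lowest in cold mice 2 and 5. With no count filter 16 mitotic genes were called higher and DESeq2 called 15, so the count of 6 depends on the filter and the test. Replication genes had 6 higher and 1 lower of 17. Rrm1, a subunit of ribonucleotide reductase, and Mcm2 and Mcm7, of the replicative helicase, rose by 0.99 ± 0.15, 1.32 ± 0.37 and 0.58 ± 0.15. The member that fell was Dut, dUTPase, by 0.60 on the log2 scale.

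Genes of mitosis commonly carry CCAAT boxes, the sites of the factor NF-Y, and the promoters of the 2 mitotic genes described above are shown for these. The motif was searched as CCAAT on either strand, so that matches on the other strand read ATTGG, and capitals mark the matches, 6 for Top2a and 3 for Mki67. The windows lie at chr11:99024140-99024439 and chr7:135716330-135716629, both on the minus strand of GRCm38.p6 as given by RefSeq.
Top2a: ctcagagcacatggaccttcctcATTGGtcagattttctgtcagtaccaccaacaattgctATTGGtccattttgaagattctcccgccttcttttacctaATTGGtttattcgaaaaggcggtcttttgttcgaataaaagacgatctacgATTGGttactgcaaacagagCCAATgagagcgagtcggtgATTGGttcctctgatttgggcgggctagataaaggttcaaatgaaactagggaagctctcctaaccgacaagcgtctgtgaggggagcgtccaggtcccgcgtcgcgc
Mki67: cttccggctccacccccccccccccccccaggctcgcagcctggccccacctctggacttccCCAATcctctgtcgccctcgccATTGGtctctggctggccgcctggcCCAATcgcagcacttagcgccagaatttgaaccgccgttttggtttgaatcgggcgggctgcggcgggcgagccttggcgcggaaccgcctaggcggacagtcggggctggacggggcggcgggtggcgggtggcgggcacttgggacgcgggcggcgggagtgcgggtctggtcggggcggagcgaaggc
All 6 mitotic genes that rose held the motif (100.0%), against 41.1% of the 27025 genes with a promoter and 37.4% of all promoters. Among the tested genes with a promoter the share was 42.5%. The 6 genes came from a list of a class known for this motif and were called in these data. Their share is therefore no independent evidence, and a match is not evidence of binding.

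Stromal markers moved in both directions. Of 17 stromal markers, 6 rose (35.3%, against 18.3% of all genes) and 3 fell (17.6%, against 15.5%). The 3 became 1 without control mouse 2 or cold mouse 2. Pdgfra and Cd34, which define adipose progenitors, had log2 differences of 0.21 ± 0.20 and 0.25 ± 0.16 and did not pass the test. Ly6a (SCA1) rose from 42.5 ± 5.85 to 119 ± 42.9 CPM (log2 1.50 ± 0.20), Adam12, a metalloprotease, from 16.5 ± 4.81 to 49 ± 8.44 CPM, and Cd44, the hyaluronan receptor, by 1.91 ± 0.35. Gsn, gelsolin, fell from 552 ± 70.7 to 275 ± 52.5 CPM. Ly6a is also induced by interferon and Cd44 is carried by leukocytes, and the part of those cells in the 2 rises was not tested.

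Collagen genes had 7 of 15 higher and 0 lower by edgeR, and 11 were higher without cold mouse 2. Col4a1, of basement membranes, stood at 122, 142, 125, 107 and 85.7 CPM in the controls and at 267, 217, 257, 260.3 and 249 CPM in the cold mice (log2 1.11 ± 0.12, adjusted p = 4.5e-06). Col18a1 and Col15a1, likewise of basement membranes, rose by 1.31 ± 0.27 and 0.93 ± 0.19. The fibrillar Col1a1 ranged from 85.4 to 239 CPM in the controls and from 106 to 222 CPM in the cold mice and was not called (adjusted p = 0.15). Among matrix remodelling genes, 8 of 19 rose and 2 fell. Loxl1 and Loxl2, which cross-link matrix, rose from 14.6 ± 8.68 to 59.7 ± 10.1 CPM and from 7.63 ± 1.41 to 18.1 ± 6.34 CPM, and Sparc, a collagen-binding protein, rose by 0.74 ± 0.12.

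Endothelial genes had 5 higher (27.8%, against 18.3% of all genes) and 3 lower (16.7%, against 15.5%) of 18. The 5 became 3 without control mouse 3 or cold mouse 1 or 2. With scaling by total counts the split turned to 3 higher and 7 lower. Eng, a TGF-β co-receptor, rose from 12.1 ± 2.72 to 31.6 ± 2.8 CPM (log2 1.38 ± 0.15), Emcn, endomucin, by 1.03 ± 0.16, and Pecam1, the pan-endothelial marker, by 0.61 ± 0.13. The 3 that fell are secreted factors of the vessel wall and adipocytes: Angpt1 fell from 50.7 ± 6.77 to 13.8 ± 2.6 CPM (log2 -1.88 ± 0.14), Vegfb from 146 ± 6.55 to 63.7 ± 8.65 CPM (log2 -1.19 ± 0.10) and Angptl4, an inhibitor of lipoprotein lipase, from 106 ± 26.9 to 46.5 ± 4.82 CPM (log2 -1.20 ± 0.15). Of 9 tested smooth muscle and pericyte genes, 2 rose (22.2%, against 18.3% of all genes) and 0 fell by edgeR, with a median of 0.02. Scaling by total counts gave 1 higher and 1 lower. Mylk, myosin light chain kinase, was among those that rose, by 0.95 ± 0.13. Of 7 tested Schwann and nerve genes, 1 rose and 3 fell. S100b, which brown adipocytes also express, rose from 164 ± 29.9 to 301 ± 84.8 CPM, and Mbp, of myelin, fell by 0.78 on the log2 scale.

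Of 14 tested skeletal muscle genes, 1 rose and 1 fell (7.14% each, against 18.3% and 15.5% of all genes), with a median of -0.93. With the replicate number as a block 7 were lower, and with no count filter 13. The member that fell was Pvalb, parvalbumin, at 13.1 to 100 CPM in the controls and 0 to 26.2 CPM in the cold mice (log2 -1.81 ± 0.55, adjusted p = 0.018), named after its values were seen, and its call was lost without control mouse 1. The member that rose, Mb, encodes myoglobin, an oxygen store that brown fat also makes. Mb had 1.87 to 25.3 CPM in the controls and 102, 87.9, 62.4, 73.6 and 25.9 CPM in the cold mice (log2 2.49 ± 0.41, adjusted p = 0.0002). Acta1, skeletal actin, ranged from 15.2 to 298 CPM in the controls and from 0.834 to 128 CPM in the cold mice and was not called (adjusted p = 0.25). Erythroid genes had 1 of 5 higher, Hbb-bt, a β-globin with a near-identical neighbour, by 0.73 ± 0.15. That count became 2 without control mouse 3 or cold mouse 1 or 3.

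Secreted factors of brown fat had 8 of 14 higher and 3 lower. Beyond Bmp8b and Gdf15, Igfbp3, a carrier of insulin-like growth factors, rose from 3.51 ± 0.412 to 11.6 ± 3.67 CPM (log2 1.72 ± 0.25), and Metrnl, meteorin-like, by 1.39 ± 0.34. Among channels, Piezo1, a mechanosensitive cation channel, rose from 33.1 ± 8.81 to 73.2 ± 9.05 CPM (log2 1.14 ± 0.16), and Ano1, a calcium-activated chloride channel, fell from 32.7 ± 8.87 to 10.3 ± 1.94 CPM (log2 -1.68 ± 0.19).

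The circadian list had 9 lower and 3 higher of 17, with a median of -0.66. Dbp, an output regulator of the clock, stood at 78.4, 53.2, 91.6, 90.2 and 103 CPM in the controls and at 19.5, 8.59, 20.9, 23.1 and 9.18 CPM in the cold mice (log2 -2.34 ± 0.24, adjusted p = 2.3e-06). Per3 and Bhlhe41, repressors of the clock, fell by 1.95 and 1.89 on the log2 scale. Arntl, the core activator BMAL1, rose from 1.57 ± 0.462 to 7.88 ± 3.69 CPM (log2 2.29 ± 0.35), and Nfil3, a repressor of the same target sites as Dbp, by 1.48 ± 0.27. The hour of tissue collection is not given in the sources used here, so a difference in the hour and an effect of cold cannot be told apart for these genes.

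The third day was also set beside its neighbours in the course, which share the cold mice with the comparison above. Between 3 and 2 days of cold, 14 genes were higher (0.133% of 10530 tested) and 1 was lower (0.0095%) by edgeR, while 880 had an unadjusted p below 0.05 and DESeq2 called 66 and 15. Between 3 and 4 days, 0 were called in either direction by edgeR (0.0% of 10843 for higher and 0.0% for lower), 845 had an unadjusted p below 0.05, and DESeq2 called 9 and 9. In the following values CPM was scaled over all 35 libraries. Isg15 had 3.33, 3.72, 3.97, 1.05 and 3.18 CPM after 2 days and 23.6, 8.44, 30.0, 36.7 and 4.64 CPM after 3 days (log2 2.75 ± 0.48, adjusted p = 0.039). After 4 days Isg15 had 33.9, 24.9, 12.8, 1.41 and 4.52 CPM, so mice with high and with low levels were present on both days. The interferon list had 5 of 13 members higher after 3 than after 2 days. The calls of Ifit3, Irf7, Rsad2 and Isg15 were each lost in 8 of the 10 fits that left out 1 mouse.

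Lgals3bp, a secreted galectin-3-binding protein, had 14.6 to 22 CPM after 2 days, 44.1 to 145 CPM after 3 days and 35.8 to 169.8 CPM after 4 days, against 14.6 to 24.7 CPM in the controls. It rose by 2.21 ± 0.28 between days 2 and 3 (adjusted p = 0.005). Hlf, a clock output factor related to Dbp, had 29.1 to 50.8 CPM after 2 days and 81.7 to 93.9 CPM after 3 days, and its log2 difference from the controls on day 3 was -0.43, a call that was lost in 9 of the 10 fits that left out 1 mouse. For the step from day 2 to day 3, Lgals3bp and Hlf were the only genes of the 15 whose call held in each of the 10 fits that left out 1 mouse. Gmpr, a guanosine monophosphate reductase, was the gene that was lower on day 3. It stood at 76.1 to 113 CPM in the controls, at 1452 to 2401 CPM after 2 days, at 896 to 1172 CPM after 3 days and at 848 to 1261 CPM after 4 days. Between days 2 and 3 it fell by 0.88 on the log2 scale, and its call was lost in 5 of the 10 fits that left out 1 mouse. The 14 higher calls changed in number whichever mouse was left out. Without cold mouse 5 or 2 of day 3 they became 65 or 47, without cold mouse 1, 3 or 4 of day 3 they became 2, 4 and 2, and without any of mice 1 to 5 of day 2 they became 5, 2, 3, 7 and 3.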

How the data were processed

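The authors deposited 1 table of raw counts per Ensembl gene for 35 libraries. Per the labels and the submitters' processing notes, 76-base QuantSeq 3' FWD reads were aligned to GRCm38 with STAR 2.6.1d and counted with HTSeq 0.11.2. The strand setting, the treatment of reads mapping to several places and any use of molecular identifiers are not given in the sources used here. The SEs hold the spread between mice as well as counting error, the floors hold counting error only, and neither covers these settings.

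From these counts, columns were matched to samples by name. Of 55421 identifiers, 267 had no symbol. Genes were filtered by edgeR's filterByExpr, libraries were scaled by TMM, and groups of 5 were compared with the quasi-likelihood test of edgeR 4.0.16 (R 4.3.3) and Benjamini-Hochberg adjustment, threshold 0.05, two-sided. The SE of a log2 difference was its size divided by the square root of F. Fold bounds used a floor of 3 counts in each library of the lower group. Alternatives were DESeq2 1.42.0, other scalings and filters, a 35-library fit, the replicate number as a block and leaving out each mouse. The fits were tested on simulated data with known changes.

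The genes named were the 12 largest changes in each direction (mean of at least 50 counts, no overlap between groups), the genes that the study labels in its heatmap and, in each list, up to 5 called members with the largest changes (mean of at least 20 counts) and the first 3 members. Some genes that this rule picks are not reported here. The lists and the genes were chosen with earlier results of these data known. Promoters came from RefSeq tables of GRCm38.p6. Gene coordinates came from GENCODE on GRCm38. Totals ranged from 3945908 to 5570725 counts, and 1 count was worth 0.18 to 0.253 CPM.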

Additional observations from a re-analysis of the deposited data

Results flagged for a closer look

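In 22 of 370 groups of 5 mice (the controls or the 3-day cold mice, gene by gene), 1 mouse stood apart from the other 4. The gap to its neighbour exceeded 0.71 of the range of the group, which chance gives in about 1 of 20 groups. In CPM, the mice that stood apart among the controls were mouse 1 for Atp6v0d1 (22.2), Col1a1 (239), Eci1 (562) and Lamp1 (487), mouse 2 for Ccl9 (1.45), Hlf (73.3) and Pfkm (19.9), mouse 3 for Pf4 (21.7), mouse 4 for mt-Nd3 (14.9) and mouse 5 for Lamp2 (87.1). Among the cold mice they were mouse 2 for Ccl6 (29.7), Gmpr (1255) and Mki67 (4.63), mouse 3 for Srxn1 (52.3) and Txnrd1 (106), mouse 4 for Mvd (4.79), Pecam1 (55.96), Scd1 (1213) and mt-Tc (651), and mouse 5 for Pfkm (21.97), Pfkp (145) and Rps19 (125).

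The change from room temperature differed between 3 and 2 days of cold for 15 genes, by edgeR's test of 3 against 2 days. On the log2 scale, 3 days minus 2 days, the differences were 3.08 for Ifit3, 2.92 for Irf7, 2.87 for Rsad2, 2.75 for Isg15, 2.42 for Cmpk2, 2.34 for Bst2, 2.31 for Nnat, 2.21 for Lgals3bp, 1.76 for Igtp, 1.69 for Gbp5, 1.28 for Trim25, 1.08 for Hlf, 0.728 for Serping1, 0.722 for Tap2 and -0.88 for Gmpr.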

How the results depend on the processing

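The counts of genes called after 3 days against room temperature stayed within 1.5 times the reported ones for higher and lower calls under every alternative. Without 1 mouse they ranged from 1702 to 1941 higher and from 1369 to 1613 lower, and by at least 2-fold from 596 to 709 and from 447 to 530. The 601 higher and 469 lower calls of at least 2-fold became 916 and 997 with no count filter, and DESeq2 gave 823 lower. Both of those fits tested more genes of low count. For 3 against 2 days, higher and lower calls were 66 and 15 with DESeq2, 193 and 48 with no count filter and 48 and 12 with the 7 groups in one fit, and 4 were higher with scaling by total counts. They ranged from 2 to 65 and from 0 to 6 without 1 mouse. For 3 against 4 days they were 9 and 9 with DESeq2 and 76 and 65 with no count filter, and ranged from 0 to 1 and from 0 to 0 without 1 mouse. The cause of these shifts was not tested.

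The replicate numbers did not pair the mice. Correlations of deviations between mice with the same number were 0.019, 0.095, 0.045, -0.07 and -0.078, and 1 of 5 correlated best with its own number. With the replicate block, calls against room temperature were 1777 higher and 1511 lower, and for 3 against 2 days 5 and 0.

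Of 187 tested genes named in the report, 172 were called, and 170 of these kept the call in each of the 10 fits that left out 1 mouse. The exceptions were Hlf, whose call was also lost with the replicate block, and Pvalb, whose call was also lost with DESeq2, and Mcm7 lost its call with the 7 groups in one fit. The only named gene that changed sign was mt-Nd5, which was not called at 0.013, moved to -0.137 with scaling by total counts and ranged from -0.0803 to 0.0933 without 1 mouse. With 3945908 to 5570725 counts per library, genes near 1 CPM in both groups were mostly left untested.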
